A study of Mus musculus with 32 samples.

Results

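The 6 genes described here are the EGR transcription factors *Egr1*, *Egr2*, *Egr3* and *Egr4* and the NAB corepressors *Nab1* and *Nab2*, out of 54233 rows of the expression table. They were chosen by name, with their measured levels over the time course already known, so these levels are a description and carry no test. EGR proteins are zinc finger factors that bind GC-rich DNA. Their genes are immediate early genes, which are transcribed within minutes of a growth factor signal through the kinases MEK and ERK, the SRF and ETS factors at their promoters, and CREB. NAB1 and NAB2 bind a repression domain of EGR1, EGR2 and EGR3 and recruit repressors such as the NuRD complex. *Nab2* is itself a known EGR1 target, which makes the NAB proteins a feedback arm on EGR activity.

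RNA-seq was performed on KH2 mouse ES cells (strain C57BL/6 in the labels) that carry a TRE:GATA6-DSREd2 transgene, switched on by doxycycline (Dox), with 4 replicates at each of 8 time points. Cells at 0 h received no Dox and were kept in 2i medium with the MEK inhibitor PD0325901, a GSK3 inhibitor and LIF, whereas cells at 2, 4 and 8 h were in serum medium with LIF and 1 µg/ml Dox, without the inhibitors. For 16, 24, 48 and 96 h, Dox was given for 12 h and then withdrawn in serum medium. The release from MEK inhibition, the serum, the loss of the GSK3 inhibitor and the transgene therefore change together between 0 h and every later sample, and their parts in any difference from 0 h cannot be told apart. All samples come from this line. The study describes replicates as independent biological ones, without saying what was cultured apart, so that spreads given here are those between samples of 1 line.

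Libraries held between 3190108 and 12301732 reads on genes. Within a time point, replicates 1 and 2 resembled each other, as did replicates 3 and 4, a grouping seen in the values and named in no label. Levels are normalized counts, the reads of a gene divided by the size factor of its library, and where no library of a time point had over 3 reads, the level of a gene there was taken as not measurable. A ratio to such a time point is given with its counting interval where any read was found, and as a lower bound over 3 reads per library where none was. All 8 ES cell markers examined were above 3 reads at every time point, with a summed level of 37190 to 44200 at 0 h and 5315 to 5844 at 96 h. The 9 primitive endoderm markers summed to 631 to 901 at 0 h and to 212600 to 296900 at 96 h. Of the 5 fibroblast markers, *Dcn* and *Lum* were at or below 3 reads in every sample, and the 5 genes together summed to at most 34.0. The 3 trophoblast markers *Cdx2*, *Elf5* and *Krt7* summed to 33.05 to 55.03 at 0 h, 8.04 to 31.9 at 8 h and 82.3 to 366 at 96 h. In bulk RNA a smaller share of cells that express a gene and less RNA per cell cannot be told apart.

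RefSeq promoter windows (GRCm38.p6), which run from 250 bases before to 50 after a start, were matched for 4 of the 6 genes. No window was available for *Egr1* and *Egr3*, so their promoters were not searched. Those of *Nab1*, *Nab2* and *Egr2* are printed because these 3 genes had their highest level at 2 h and their windows hold letters that EGR proteins, SRF or CREB are known to bind. Capitals mark the matches, on either strand, to the EGR motif GCGNGGGCG, its shorter form GCGTGGGC, the short CREB site TGACG and the CArG box of SRF. The windows are chr1:52500399-52500698 (minus strand), chr10:127666654-127666953 (minus strand) and chr10:67537619-67537918 (plus strand).
*Nab1*: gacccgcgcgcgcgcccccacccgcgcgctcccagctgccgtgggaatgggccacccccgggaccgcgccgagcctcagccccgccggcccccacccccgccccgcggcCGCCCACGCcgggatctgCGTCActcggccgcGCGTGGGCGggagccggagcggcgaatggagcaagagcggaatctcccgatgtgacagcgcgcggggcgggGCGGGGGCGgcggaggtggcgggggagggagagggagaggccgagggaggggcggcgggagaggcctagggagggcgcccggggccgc
*Nab2*: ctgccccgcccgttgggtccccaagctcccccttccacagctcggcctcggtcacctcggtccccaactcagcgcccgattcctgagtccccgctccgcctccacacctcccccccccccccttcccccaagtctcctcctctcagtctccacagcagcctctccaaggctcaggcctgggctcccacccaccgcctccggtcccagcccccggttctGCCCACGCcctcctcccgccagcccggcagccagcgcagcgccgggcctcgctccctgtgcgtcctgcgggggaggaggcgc
*Egr2*: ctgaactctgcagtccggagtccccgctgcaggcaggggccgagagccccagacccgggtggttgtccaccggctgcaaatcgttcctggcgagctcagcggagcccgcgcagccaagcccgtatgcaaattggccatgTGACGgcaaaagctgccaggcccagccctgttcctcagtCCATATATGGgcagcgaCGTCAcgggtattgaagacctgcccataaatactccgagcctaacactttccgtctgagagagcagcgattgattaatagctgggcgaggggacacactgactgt
The *Nab1* window holds GCGNGGGCG 3 times, with first bases 141, 109 and 38 bases before the start, and 2 of these are the stricter GCGTGGGCG. It also holds a match to TGACG on the reverse strand, 123 bases before the start. The RefSeq start used lies 231 bases inside the GENCODE gene, and all 3 GCGNGGGCG matches fall within that gene. Of all 32851 promoter windows, 5.55% hold GCGNGGGCG at least once and 0.612% hold GCGTGGGCG. The *Nab2* window has no match to either, but holds the 8-letter GCGTGGGC once, 32 bases before the start, as do 1.63% of windows (the 8 letters lie inside the strict motif). It also covers the start of *Nemp1* on the other strand. The *Egr2* window holds a CArG box 72 bases before the start, found in 1.63% of windows, and TGACG 2 times, found at least once in 20.8%. It is 1 of 5 windows of *Egr2*, and another of these holds a CArG box with other letters. The full CREB site TGACGTCA and the letters TATAAA were also searched and matched no window of the 4 genes. The ETS site CCGGAA matched, among these genes, only a window of *Egr2* that is not printed. The *Egr4* window holds TGACG 2 times and no CArG box. These are matches of letters, and no binding data were used here.

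*Egr1* (ENSMUSG00000038418, chr18:34859823-34864984 on the plus strand, GENCODE M21 on GRCm38), the best known member of the family, reached the highest normalized count of the 6. Its normalized counts at 0 h were 87.0, 72.0, 90.3 and 113 in replicates 1 to 4, and at 2 h they were 1837, 1936, 2501 and 2489. All 2 h samples lay far above all 0 h samples, by 4.58 ± 0.40 on the log2(normalized count + 1) scale (difference ± SE, from 1 fit over all 32 samples in which every time point shares the same SE for a gene). At 4 h the 4 samples were at 836, 836, 879 and 906, all below every 2 h sample. At 8 h they stood at 404, 427, 133 and 151. The 16 h samples had 224, 262, 75.2 and 69.0, and the 24 h samples 55.2, 68.2, 18.3 and 17.1. In this stretch replicates 1 and 2 held 2.93, 3.37 and 3.49 times the level of replicates 3 and 4, whereas at 0, 2, 4, 48 and 96 h the same ratio was between 0.70 and 0.94. At 48 h the samples were at 50.9, 45.2, 58.9 and 53.7, and at 96 h at 14.9, 15.8, 20.1 and 23.6. From 24 h on, every sample was therefore below every 0 h sample. The difference of 96 h from 0 h was -2.23 ± 0.40.

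A gap of this kind was uncommon. Both samples of replicates 1 and 2 above both of replicates 3 and 4, with at least a 2-fold ratio of the means, was seen for 1.63% of the 15227 tested genes at 8 h, 1.91% at 16 h and 3.70% at 24 h. *Egr3* had it as well at 8, 16 and 24 h, with ratios of 2.52, 2.04 and 3.01, and at 48 h with 3.20, the last 2 on at most 4 reads, and *Egr2* at 8 h with 2.20, on at most 7 reads. *Nab1* and *Nab2* did not, with ratios between 0.88 and 1.23 at these 3 time points. Of 24 other immediate early genes, *Fos* had it at 16 h, and *Fos*, *Junb* and *Dusp1* at 24 h, and of 12 ERK feedback genes none had it at 8 or 16 h and *Dusp6* had it at 24 h. Of 22 EGR targets *Th* had it at 8 and 16 h, and *Fgf2*, *Gdf15*, *Pdgfb* (on at most 8 reads) and *Th*, 18.2% of the list, at 24 h. The opposite gap was seen for 27.3%, 9.09% and 4.55% of the EGR targets at 8, 16 and 24 h. It was seen for 4.13%, 3.13% and 2.89% of all tested genes. At 24 h it was also seen for 4.17% of the immediate early genes and for 1 of 9 EGR cofactors (11.1%). What sets these samples apart was not tested.

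**Figure D1:**
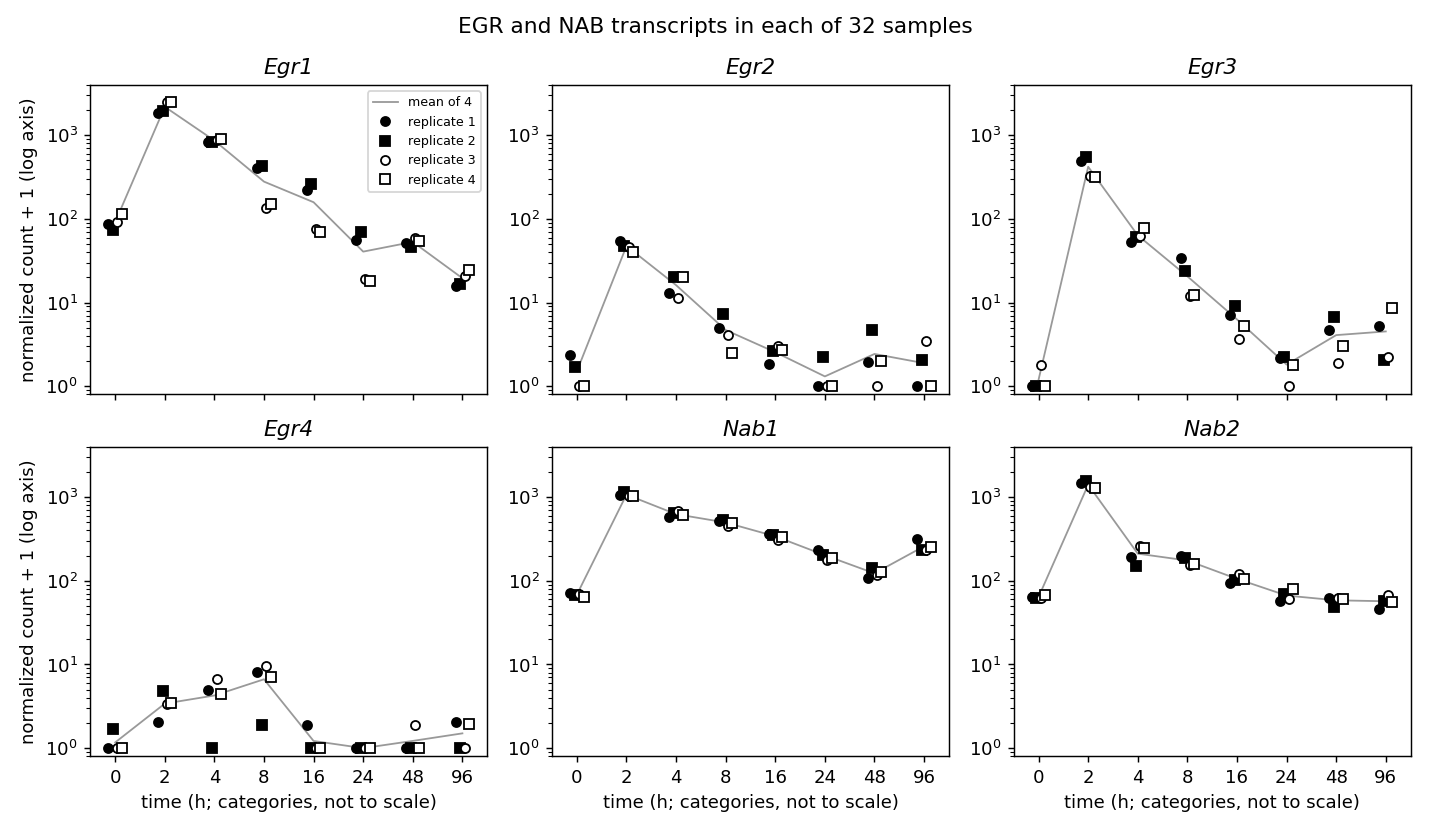
Normalized count + 1 (log axis) of each gene in each of the 32 samples against time (spaced as categories), with filled symbols for replicates 1 and 2, open symbols for replicates 3 and 4 and a line through the mean of 4. *Egr1*, *Egr2*, *Egr3*, *Nab1* and *Nab2* are highest at 2 h, *Egr4* stays at or below 8.56, and the filled and open symbols of *Egr1* lie farthest apart at 8, 16 and 24 h.

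*Egr3* (ENSMUSG00000033730, chr14:70077203-70082614, plus strand) was almost without reads at 0 h. There it had 1 read in 4 samples together, and at 2 h the normalized counts were 495, 547, 324 and 314, from 1859 reads. The ratio of 2 h to 0 h rests on that 1 read, at 1692 with an exact 95% interval from 303 to 66860 that covers counting error only. Replicates 1 and 2 were 1.63 times as high as replicates 3 and 4 at 2 h. At 4 h the samples were at 52.4, 60.6, 61.7 and 76.3, which is 15.0% of the 2 h mean, and at 8 h at 33.0, 23.2, 10.9 and 11.4. At 16 h they held 4 to 10 reads each, and at 24 h at most 2 reads. At 96 h they held 4, 1, 1 and 8 reads, which overlaps with 48 h (1 to 4 reads).

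*Egr2* (ENSMUSG00000037868, chr10:67535475-67542188, plus strand), known for its role in hindbrain and myelin development, followed the same course at a lower level. At 0 h it had 2 reads in 4 samples, and at 2 h the normalized counts were 54.0, 46.8, 45.7 and 39.4, from 201 reads. The ratio of 2 h to 0 h, over those 2 reads, was 91.5 (exact 95% interval 25.0 to 760, counting error only). At 4 h the samples were at 11.9, 19.4, 10.4 and 19.1, all below every 2 h sample, at 8 h they held 2 to 7 reads, and from 16 h on at most 3 reads.

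*Egr4* (ENSMUSG00000071341, chr6:85511121-85513589, minus strand) was barely measured and did not pass the filter on low values. It had 1 read in 4 samples at 0 h, then 1, 5, 2 and 3 reads at 2 h, a ratio of 10.0 (exact 95% interval 1.46 to 431, counting error only). The 4 h samples had 4, 0, 7 and 4 reads, and the 8 h samples 9, 1, 11 and 8. Its mean was thus highest at 8 h, at 5.65 ± 3.33 (SD, n = 4), where replicate 2 had 1 read and overlapped with the 2 h and 4 h samples. From 16 h on no sample had more than 1 read.

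*Nab1* (ENSMUSG00000002881, chr1:52457294-52500679, minus strand) kept more of its 2 h level than the other members that passed the filter. Its normalized counts at 0 h were 70.4, 67.3, 69.3 and 62.3, and at 2 h they were 1049, 1154, 1043 and 1037. The 2 h samples lay above the 0 h samples by 3.97 ± 0.095 (log2 difference ± SE). At 4 h the 4 samples lay between 573 and 674, at 8 h between 450 and 531, at 16 h between 310 and 360, at 24 h between 179 and 235 and at 48 h between 107 and 139. Each of these 5 groups was below every sample of the time point before it. At 96 h the samples were at 311, 232, 234 and 253, above every 48 h sample by 1.07 ± 0.095. The 96 h level was 1.91 ± 0.095 above that at 0 h, or 1.65 with CPM scaling, by the library total, which moved the median of all tested genes in this comparison by -0.262. No other member was higher at 96 h than at 48 h without overlap of the samples.

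*Nab2* (ENSMUSG00000025402, chr10:127660918-127668568, minus strand) had a narrower peak than *Nab1*. At 0 h its samples were at 63.5, 61.2, 61.3 and 66.1, and at 2 h at 1455, 1556, 1337 and 1284, a log2 difference of 4.46 ± 0.14. At 4 h they were at 191, 150, 257 and 243, which is 14.9% of the 2 h mean, against 58.3% for *Nab1* and 39.4% for *Egr1*. They lay between 154 and 197 at 8 h, overlapping with 4 h, and between 93.1 and 120 at 16 h. At 24, 48 and 96 h they lay between 45.6 and 78.3 and overlapped with 0 h, with a difference of -0.18 ± 0.14 at 96 h, or -0.44 with CPM scaling. Its exons overlap 3 genes on the opposite strand, and whether the counting used strand is not stated in the sources used here. They share 1050 bases (35.7% of the *Nab2* exons) with the antisense gene *Gm16229*, 151 bases with *Nemp1* and 40 bases with *Stat6*. *Gm16229* had at most 2 reads in any sample. *Nemp1* was at 616 ± 21.4 at 0 h and 1251 ± 15.2 at 2 h, and *Stat6* was at 341 ± 19.0 and 284 ± 25.6 (normalized counts, SD, n = 4).

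At 2 h every sample was above every 0 h sample for 6 of 6 genes, as for 16.5% of the tested genes. All 5 genes that passed the filter had a log2 difference above 2 there, and for 5 of 5 the mean was highest at 2 h, which holds for 13.5% of the tested genes. The threshold used for other genes below, an adjusted p under 0.1 and a 4-fold change, was passed upward by 2.00% of the tested genes and downward by 0.348%. With the adjusted p alone, 22.2% were higher and 22.6% lower. At 4 h every sample was below every 2 h sample for 5 of 5, as for 10.3% of tested genes. At 48 h all 5 had a log2 difference from 2 h below -2, from -3.13 for *Nab1* to -6.80 for *Egr3*, where 7.65% of the tested genes passed the threshold downward and 8.50% upward. At 96 h against 0 h *Egr1* was past 4-fold, downward, at -2.23 (-1.995 on the deposited values). *Egr3*, on at most 8 reads, was at 1.71 there, and past 4-fold at 2.33 with a pseudocount of 0.5 and at 2.18 without replicate 3. These stand beside 10.3% of the tested genes downward and 9.28% upward. As the genes were chosen on these values, and *Egr2* and *Egr3* passed the filter only through their early samples, nothing is read from these counts.

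Levels of different genes can be compared only per length of exon. At 0 h the order was *Nab2* (21.4 ± 0.79 normalized counts per kb, SD, n = 4), *Egr1* (20.2 ± 3.81) and *Nab1* (16.4 ± 0.87), and the samples of *Egr1* overlapped with those of both NAB genes. At 2 h *Egr1* (489 ± 78.9) and *Nab2* (479 ± 41.5) again overlapped, followed without overlap by *Nab1* (261 ± 13.5), *Egr3* (95.3 ± 26.9), *Egr2* (13.7 ± 1.76) and *Egr4* (1.12 ± 0.52). At 4 h *Egr1* (193 ± 7.64) stood above *Nab1* (152 ± 10.2), and *Nab1* above *Nab2* (71.4 ± 16.6), with no overlap. From 8 h on *Nab1* was highest, at 121 ± 8.63 at 8 h, and its samples overlapped with no other member at any of these time points. *Egr1* made up 75.6 to 86.9% of the summed EGR level at 2 h and 89.2 to 91.6% at 4 h.

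**Figure D2:**
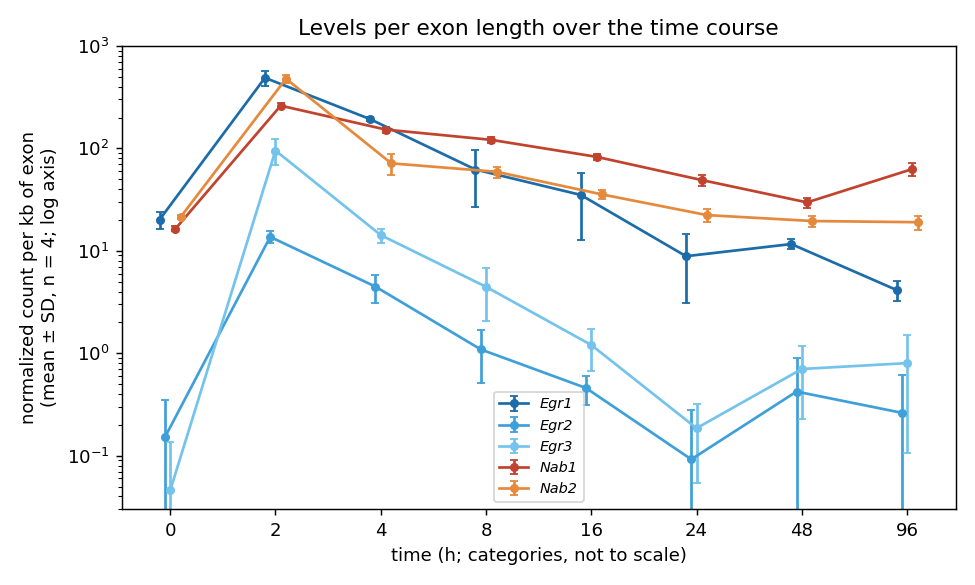
Mean normalized count per kb of exon (log axis, bars are SD, n = 4, and bars that reach 0 run off the axis) against time (spaced as categories) for the 5 genes that passed the filter. *Egr1* and *Nab2* meet at 489 and 479 at 2 h, and *Nab1* is the highest line from 8 h on, ending at 62.8 at 96 h.

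The summed NAB level was set against the summed EGR level within each sample. The ratio was 1.49 to 2.24 at 0 h and 1.08 to 1.42 at 2 h, and lay between 1.00 and 1.17 at 4 h. From then to 24 h it was higher at each step in both replicate sets. At 8 h it was 1.89 and 1.88 in replicates 1 and 2 and 4.38 in both replicates 3 and 4. At 16 h it was 2.30 and 1.99 against 6.48 and 6.89, and at 24 h 6.08 and 4.60 against 15.6 in replicate 3 and a still higher value in replicate 4. At 48 h the sets met again at 3.57 to 4.01, and at 96 h the ratio was 10.8 to 19.2. The EGR sum rests on few reads at 24 and 96 h. *Egr1* had 9 and 21 reads in replicates 3 and 4 at 24 h, and 14 to 25 per sample at 96 h. No counting interval was computed for these ratios. *Nab1* gave 34.1 to 36.7% of the NAB sum at 2 h and 64.5 to 75.3% at 4 h. These are transcript levels only.

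**Figure D3:**
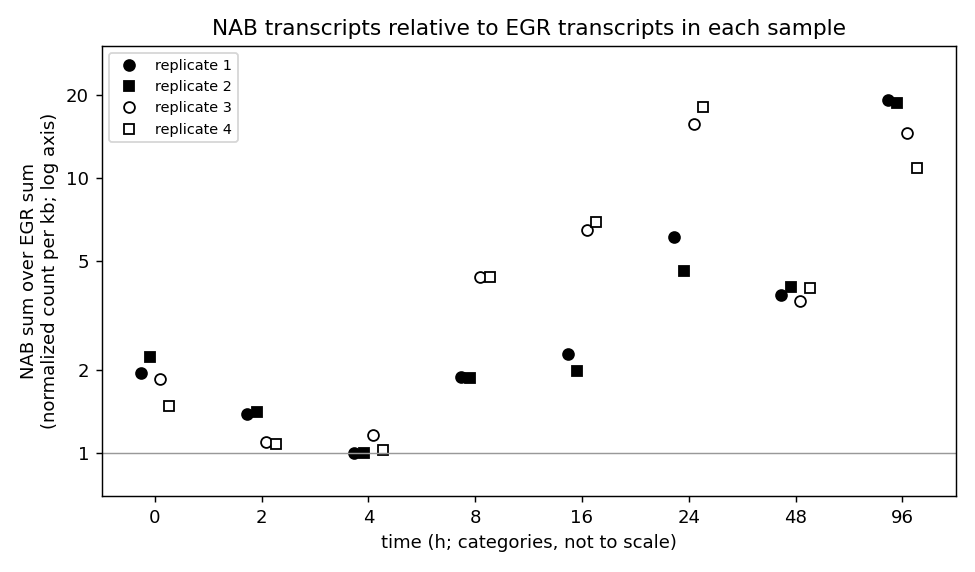
Ratio of the summed *Nab1* and *Nab2* level to the summed level of the 4 EGR genes (normalized counts per kb, log axis) in each sample against time, with filled symbols for replicates 1 and 2 and open symbols for replicates 3 and 4. The samples lie between 1.00 and 1.17 at 4 h, part by set at 8, 16 and 24 h, and lie between 10.8 and 19.2 at 96 h.

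Genes most like each member were taken as the 3 with the highest Pearson r over the 32 samples on the log2 scale, outside the 6 genes. The points share 8 time points and the replicate sets, so that r is a description only. *Egr1* was closest to *Snai3* (r = 0.946), a zinc finger gene of the Snail family that went from 21.6 at 0 h to 530 at 2 h and 5.32 at 96 h, then to *Spred3* (0.942), an inhibitor of Ras and ERK signaling, and *Ell2* (0.937), an elongation factor. *Egr3* was closest to *Cacul1* (0.948), *Strn3* (0.933) and the AP-1 subunit gene *Fosl1* (0.931). *Egr2* was closest to *Paxbp1* (0.931), *Socs5* (0.925), a suppressor of cytokine signaling, and *Zfp719* (0.922). A high r does not mean a change of like size. *Paxbp1* went only from 607 at 0 h to 873.5 at 2 h, and *Cacul1* from 626 to 990. *Nab1* was closest to the tyrosine phosphatase gene *Ptpn12* (0.976), which also came back from 437 at 48 h to 816 at 96 h, then to *Kcmf1* (0.954) and *Strn3* (0.946). *Nab2* was closest to *Arl5b* (0.964), *Cacul1* (0.939) and *Socs5* (0.939).

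Other genes of the pathway were examined in 6 lists with 95 genes, of which 92 were tested with limma (adjusted p by Benjamini-Hochberg over all 15227 tested genes). Like the 6 genes, the lists were chosen with earlier results of these data known. Their counts beside the shares of all tested genes are therefore a description and no test of the lists. At 2 h 19 of 92 rose by at least 4-fold and 0 fell, beside 2.00% and 0.348% of all tested genes. No listed gene fell 4-fold at an unadjusted p under 0.05, nor by limma-voom. The EGR target *Gdf15* passed downward without replicate 4 (-2.13) and in replicates 1 and 2 alone (-2.52). By list, 9 of 24 immediate early genes, 6 of 12 ERK feedback genes, 3 of 22 EGR targets and 1 of 9 EGR cofactors rose, against 0 of 12 genes of the ERK and SRF signal chain and 0 of 13 NuRD subunits. With the adjusted p alone these lists had 18, 9, 6, 6, 6 and 7 genes higher and 0, 0, 4, 0, 2 and 3 lower. The median log2 difference was 1.80 for the immediate early genes, 1.89 for ERK feedback and -0.01 for the EGR targets, beside -0.03 for all tested genes.

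Upstream of EGR, *Srf*, the factor that binds the CArG box, was at 266 ± 9.10 at 0 h and 760 ± 126 at 2 h, below the 4-fold threshold. Among immediate early genes the largest rises were those of *Fosl1* (6.04 ± 0.51 on the log2 scale, adjusted p = 7.98e-11), *Maff* (4.22 ± 0.32, 6.34e-12) and *Arc* (3.67 ± 0.16, 2.2e-17). Among ERK feedback genes they were those of *Phlda1* (5.63 ± 0.20, 1.37e-19), and of the MAP kinase phosphatase genes *Dusp5* (4.92 ± 0.23, 7.41e-17) and *Dusp4* (4.55 ± 0.36, 2.02e-11). At 0 h *Dusp4*, *Dusp6*, *Etv4*, *Spry4*, *Fosl1*, *Maff*, *Myc*, *Id4* and *Tgfb1* were at least 2-fold higher in replicates 1 and 2 than in replicates 3 and 4, as were 3.20% of all tested genes (6.18% the other way). Examples were *Dusp6*, at 462 against 72.4, and *Spry4*, at 488 against 43.6, while for *Egr1* the same ratio was 0.78. The differences of these genes from 0 h average over this gap. With a 2 h mean of 1240 ± 99.8, *Spry4* rose less than 4-fold in replicates 1 and 2, so its call at 2 h rests on replicates 3 and 4. Of 22 EGR targets 4 (18.2%) had the opposite gap at 0 h, and no gene of the other lists had it. The EGR targets that rose were *Thbs1*, which encodes a matrix glycoprotein (4.87 ± 0.35, 2.04e-12), the tissue factor gene *F3* (3.35 ± 0.16, 1.48e-16) and *Tgfb1* (2.12 ± 0.25, 6.89e-08). *Wt1*, a zinc finger factor that binds sites like those of EGR, rose to 11.2 ± 2.13 from 5 reads in 4 samples, a ratio of 8.74 (exact 95% interval 3.495 to 28.1, counting error only).

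At 48 h against 2 h 3 of 92 rose and 23 fell, beside 8.50% and 7.65% of all tested genes. Those that fell were 10 of 12 ERK feedback genes, 8 of 24 immediate early genes, 4 of 22 EGR targets and *Wt1* (adjusted p = 9.27e-07), to at most 3 reads. The largest falls were those of *Arc* (-6.77 ± 0.16, adjusted p = 8.43e-25), *Fosl1* (-5.98 ± 0.51, 1.13e-11) and *Dusp1* (-3.54 ± 0.22, 7.62e-15), those of *Dusp6* (-4.79 ± 0.46, 1.34e-10), *Dusp5* (-3.68 ± 0.23, 7.05e-15) and *Etv4* (-3.05 ± 0.31, 4.96e-10), and, of the targets, *Ngfr* (-2.94 ± 0.19, 1.83e-14), *Ptges* (-2.81 ± 0.47, 4.33e-06) and *Tgfb1* (-2.72 ± 0.25, 6.91e-11). The 3 that rose were *Hpse*, the heparanase gene (6.07 ± 0.49, 3.62e-12), *Vegfa* (2.42 ± 0.32, 6.73e-08) and *Mapk3*, which encodes ERK1 (2.30 ± 0.08, 9.71e-21). The listed genes called both upward at 2 h and downward from 2 h to 48 h were *Arc*, *Dusp5*, *Dusp6*, *Fosb*, *Fosl1*, *Myc*, *Phlda1*, *Spred3*, *Spry4*, *Tgfb1* and *Wt1*. Both comparisons use the same 2 h samples. The share of all tested genes with both changes was not counted, so nothing is read from their number.

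At 96 h against 0 h 15 of 92 rose and 10 fell, beside 9.28% and 10.3% of all tested genes. *Egr1* was then below its 0 h level, while of its listed targets 5 of 22 rose, led by *Thbs1* (7.38 ± 0.35, adjusted p = 5.55e-18), *F3* (7.33 ± 0.16, 3.86e-26) and *Hpse* (4.91 ± 0.49, 2.77e-10), and 5 fell, led by *Gdf15* (-4.12 ± 0.51, 1.76e-08), *Ngfr* (-3.55 ± 0.19, 1.26e-16) and *Ptges* (-2.75 ± 0.47, 5.5e-06). Of the immediate early genes 7 rose, led by *Cyr61* (5.17 ± 0.20, 6.84e-20) and *Jun* (4.71 ± 0.33, 1.09e-13), together with *Nr4a3*, which had no read at 0 h and was at least 8.59-fold higher at 96 h (against 3 reads per sample). *Arc* (-3.28 ± 0.16, 1.91e-17) and *Klf10* (-2.17 ± 0.16, 1.43e-13) fell. Of the ERK feedback genes *Dusp4* (4.00 ± 0.36, 2.51e-11) and *Phlda1* (2.91 ± 0.20, 5.94e-14) rose, and *Etv5* (-4.33 ± 0.14, 1.54e-21), *Etv4* (-3.09 ± 0.31, 2.98e-10) and *Spry1* (-2.46 ± 0.28, 3.36e-09) fell. *Wt1* rose to 16.4 ± 2.33 (adjusted p = 1.05e-08). None of 13 NuRD subunits passed the threshold in any of these 3 comparisons, and with the adjusted p alone 3 were higher and 6 lower at 96 h.

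**Figure D4:**
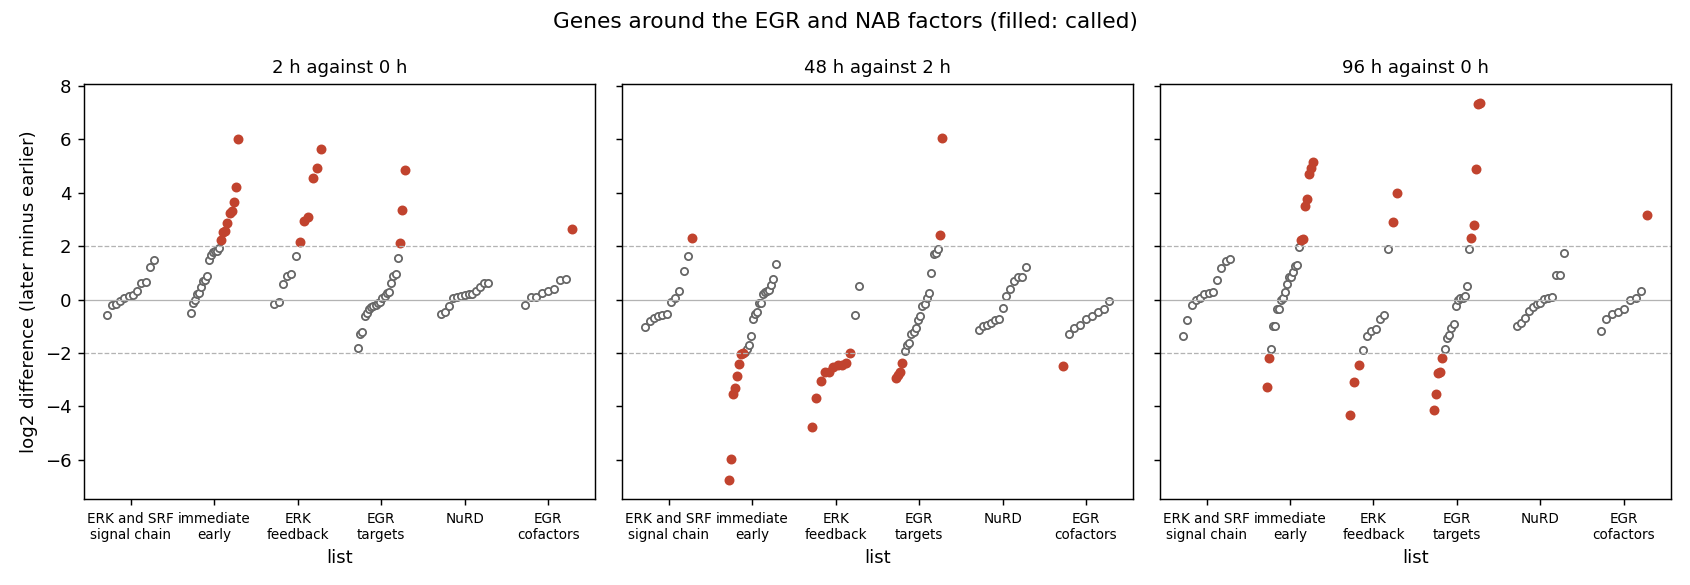
Log2 difference of each tested gene of the 6 lists at 2 h against 0 h, 48 h against 2 h and 96 h against 0 h, with filled points for genes past the threshold and dashed lines at 2 and -2. At 2 h 19 filled points are all above 0, at 48 h 23 of 26 are below 0, and at 96 h 15 of 25 are above 0.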

How the data were processed

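RNA-seq of 32 samples (4 replicates at each of 8 time points) was used, with groups and replicate numbers from the sample titles. Libraries were stranded poly(A) libraries. Per the submitters' processing notes, reads were trimmed with cutadapt 2.7, aligned to GRCm38.p6 with HISAT2 2.1.0 and counted with featureCounts (Subread 1.6.4). The authors deposited variance-stabilized log2 values made with DESeq2. The lowest value, 1.58, stands for no reads and fixes the transformation, and inverting it gave whole reads for 100% of the values (tolerance 0.01 reads). A table of identifiers gave symbols to 29046 of the 29140 rows that had none. No value column was left unmapped (0).

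The filter on low values kept 15227 genes, those at 10 normalized counts or more in 4 or more samples. For these, limma 3.58.1 (R 4.3.3) was fitted with a trend to log2(normalized count + 1), over all 32 samples. This scale understates the change of low genes. Genes were called at an adjusted p below 0.1 (Benjamini-Hochberg) and a log2 difference of at least 2. Tests were two-sided. The fit was tested on simulated data. Summaries used Python 3.11.15, numpy 2.4.6 and pandas 2.3.3, and exact (Clopper-Pearson) intervals used scipy 1.17.1 at 95%. Read counts and intervals cover counting error only.

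The 6 genes and the 6 pathway lists were chosen with earlier results of these data known. Named pathway genes are those called, at most the 3 largest rises and the 3 largest falls of a list per comparison, and every one where a list has 5 or fewer. *Srf*, the set examples *Fos*, *Junb*, *Dusp1*, *Dusp6*, *Etv4*, *Spry4*, *Maff*, *Myc*, *Id4*, *Th*, *Fgf2*, *Gdf15* and *Pdgfb*, the genes *Fosb* and *Spred3*, and the genes not called were named after their values were seen. Alternatives covered the pseudocount, the filter, the scaling, the samples in the fit, the replicate block and the FDR. The fit of limma-voom was added after seeing the data. Annotation was GENCODE M21, whereas the authors counted on m18, and promoter sequences were from RefSeq.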

Additional observations from a re-analysis of the deposited data

Results flagged for a closer look

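In 11 of 115 groups of 4 samples (the 6 genes at 8 time points, and the named pathway genes at the times compared) 1 sample stood apart by Dixon's 95% criterion on the gap to its neighbour over the range. For normally distributed values chance gives this in about 1 of 20 groups. A group with 1 sample above 0 and the others at 0 is always flagged, so that rate does not apply to low genes. For the low EGR genes the flags are 1 or 2 reads beside 0. They are *Egr3* at 0 h in replicate 3 (0.806 normalized counts), *Egr4* at 0 h in replicate 2 (0.679), at 16 h in replicate 1 (0.870) and at 48 h in replicate 3 (0.880), each from 1 read, and *Egr2* at 24 h in replicate 2 (1.25), from 2 reads. *Nab1* at 2 h was at 1154 in replicate 2, beside 1037 to 1049 in the others, and *Nab2* at 48 h was at 47.1 in replicate 2 (25 reads), beside 59.9 to 61.6. *Arc* at 96 h was at 11.3 in replicate 3, *Phlda1* at 0 h at 10.5 in replicate 3, *Ptges* at 96 h at 45.4 in replicate 4 and *Spry1* at 96 h at 18.8 in replicate 3.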

How the results depend on the processing

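The number of pathway genes called was 19, 26 and 25 (2 h against 0 h, 48 h against 2 h, 96 h against 0 h) and stayed within 16 to 21, 22 to 28 and 20 to 27 under the alternatives run, including limma-voom, which was added after seeing the data. With a replicate block the counts were 19, 26 and 25. The numbers do not pair the samples, since deviations from the time point means correlated by 0.196 on average for the same number, but by as little as -0.0428, and by 0.196 for the other number of the same set. Between samples of different sets the mean was -0.196. The 2 sets thus run across time points, and the main fit has no term for them. Genes higher ranged from 16 to 21, 3 to 5 and 11 to 16, and genes lower from 0 to 1, 19 to 24 and 7 to 13, with 5 higher at 48 h without replicate 1 and by limma-voom, and 7 lower at 96 h in replicates 3 and 4 alone. Of the 6 genes' differences, that of *Egr2* at 96 h against 0 h (0.21, on at most 2 reads) changed sign, to -0.32 without replicate 3 and -0.48 in replicates 1 and 2 alone. For genes near 0 reads at 0 h, the log2 difference at 2 h depends on the pseudocount. It was 5.76 and 3.49 for *Egr2*, 9.33 and 6.62 for *Egr3* and 2.14 and 0.61 for *Egr4* with a pseudocount of 0.5 and 4, in place of 5.06, 8.46 and 1.52. On the deposited values it was 3.71 for *Egr2*, 6.93 for *Egr3* and 3.88 for *Nab1*, and with CPM scaling 3.87 for *Nab1*, in a comparison where that scaling moved the median of all genes by -0.103. For *Egr3* it was 9.03 in replicates 1 and 2 and 7.90 in replicates 3 and 4.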
